A study of Homo sapiens with 16 samples.

Results

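A group of 8 transcription factors known to promote the epithelial to mesenchymal transition (EMT) was followed through a time course of that transition in A549, a human cell line from a lung adenocarcinoma that grows as epithelium. The factors were SNAI1, SNAI2, ZEB1, ZEB2, TWIST1, SOX4, SOX9 and HMGA2. They were taken by gene symbol from the deposited tables, 8 of 57773 genes, and no threshold on a measured value entered the selection, though earlier results of these data were known. RNA was sequenced after 6, 12, 24, 36, 48, 72 and 96 h of TGF-beta and at 0 h, with 2 libraries per time, numbered replicate 1 and 2, and 16 libraries in all. Values are TPM, the abundance of a gene's transcripts corrected for gene length and scaled to a fixed total within each library, so levels of different genes can be set side by side. Every group is the same cell line with no genetic change named in the labels. Since only the 0 h libraries were untreated, effects of TGF-beta and of time in culture cannot be told apart.

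In EMT, epithelial cells lose their junctions and polarity and gain motile, mesenchymal features, and TGF-beta is its best-known inducer in lung epithelium. TGF-beta receptors activate SMAD proteins, which raise transcription of a small set of regulators. SNAI1 and SNAI2 are zinc finger repressors, and ZEB1 and ZEB2 are zinc finger and homeodomain repressors. All of them bind E-box sequences in the promoters of epithelial genes such as CDH1, which encodes E-cadherin. TWIST1 is a basic helix-loop-helix factor. SOX4 and SOX9 bind DNA through an HMG box, and HMGA2 is a chromatin protein with AT-hooks that helped to switch on Snail genes in studies of mouse cells. ZEB1 and ZEB2 are held down after transcription by the miR-200 family in epithelial cells, and HMGA2 is a classic target of let-7.

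The mature microRNAs (RefSeq, build GRCh38.p14) are shown for their seeds, bases 2 to 8, in capitals. The seeds of miR-200c and miR-141 differ, and those of miR-200c and let-7a are complementary to the capitals in the sites that follow them.
miR-200c-3p: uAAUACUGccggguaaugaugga
miR-141-3p: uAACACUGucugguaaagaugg
let-7a-5p: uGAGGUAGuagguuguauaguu
The first site of each kind in the 3′ untranslated regions of ZEB1, ZEB2 and HMGA2 follows, read on the transcript's strand, with the seed match in capitals (GRCh38, GENCODE 29 transcripts).
ZEB1, chr10:31527619-31527640, + strand: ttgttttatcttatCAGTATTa
ZEB2, chr2:144389052-144389073, - strand: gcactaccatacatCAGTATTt
HMGA2, chr12:65963299-65963320, + strand: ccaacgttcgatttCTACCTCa
The 3′ untranslated regions of ZEB1 and ZEB2 each held 5 matches to the miR-200c seed, a number reached by 0.0314% of the 19126 regions searched, of which 14.7% held at least 1 match. They held 3 and 4 matches to the miR-141 seed, numbers reached by 0.894% and 0.267% of regions, of which 16.6% held at least 1. The regions of ZEB1, ZEB2 and HMGA2 have 1938, 5370 and 3003 bases, and these shares take no account of length. HMGA2 held 4 matches to the let-7a seed (0.0627% of regions held as many, 8.57% held at least 1), and the other 7 factors held 0. Mature microRNAs were not measured in these libraries. The precursor genes MIR200A, MIR200B, MIR200C, MIR141, MIR429 and MIR34A were listed at 0 in all 16 libraries, and MIRLET7BHG, the host transcript of a let-7 cluster, lay between 3.55 and 9.83 TPM. A match of letters is a description of these regions and not a measured site.

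The 8 factors differed widely in level. SOX4 was the most abundant at a mean of 53.6 TPM over the 16 libraries, followed by ZEB1 at 19.3, HMGA2 at 13.8 and SOX9 at 5.95 TPM. SNAI1 averaged 2.99, SNAI2 2.29, ZEB2 1.75 and TWIST1 1.13 TPM. SOX4, ZEB1, SOX9 and HMGA2 reached 1 TPM in 16 of 16 libraries, while SNAI1 did so in 13, SNAI2 and ZEB2 in 12 and TWIST1 in 10. All 8 passed the filter used for testing (at least 1 TPM in at least 2 libraries), SNAI1, SNAI2 and ZEB2 with the help of libraries of later times. ZEB1 exceeded ZEB2 in every library, by 4.94 to 21.7 times. The ratio of SOX4 to SOX9 lay between 4.10 and 25.8, and that of SNAI2 to SNAI1 between 0.161 and 1.98.

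**Figure D1:**
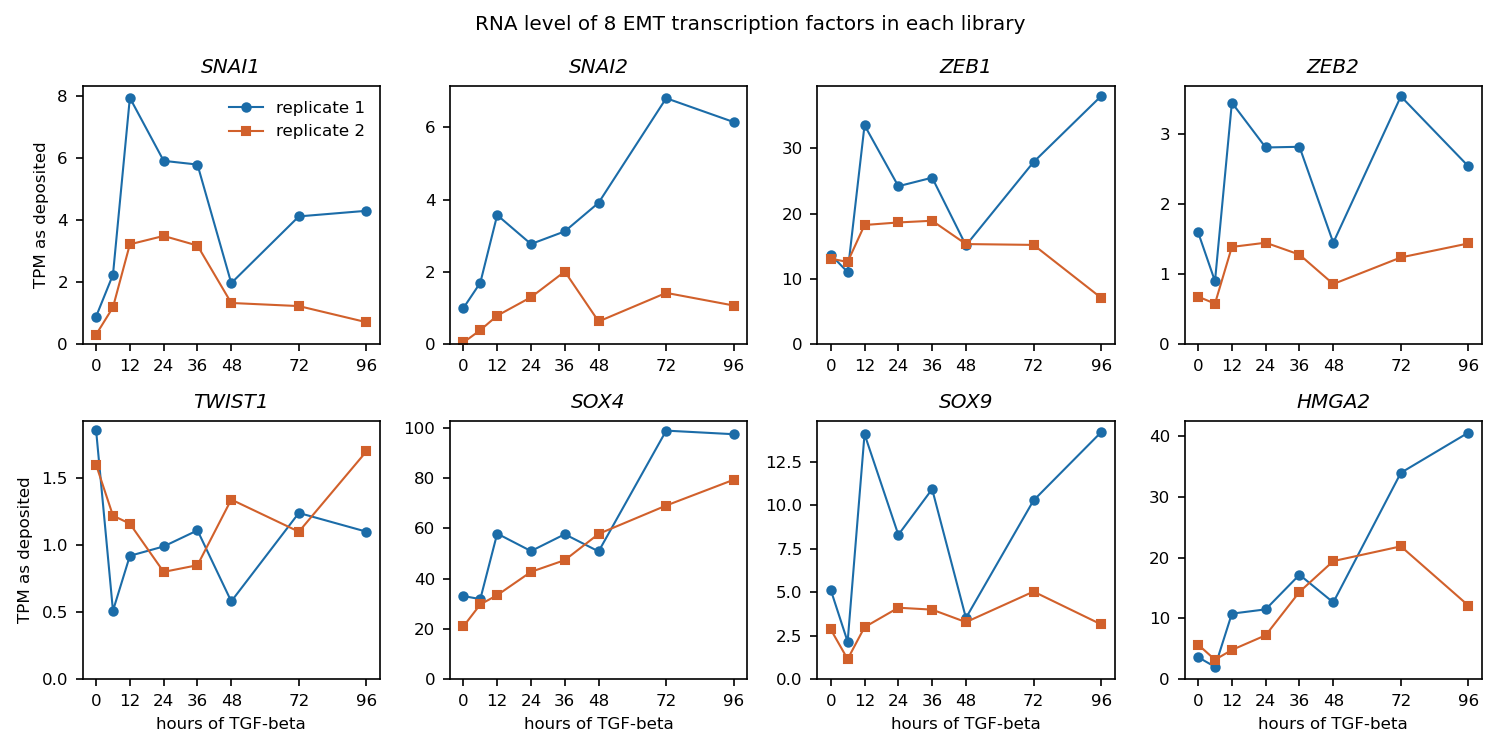
RNA level in TPM as deposited (vertical axis, starting at 0, a different scale in each panel) against hours of TGF-beta for the 8 factors; circles are replicate 1 and squares replicate 2, and each point is 1 library. SOX4 and HMGA2 were high at 72 h in both replicates, SNAI1 was highest at 12 h in replicate 1 and 24 h in replicate 2, and TWIST1 stayed below 2 TPM.

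HMGA2 and SOX4 rose: both were called higher at 72 h and SOX4 also at 96 h in the fit without a replicate term. These were 3 of 56 comparisons of a factor with 0 h (limma on log2(TPM + 1), adjusted p below 0.05), against 2.27% of all such comparisons over the 16967 genes tested. With the replicate number as a block 13 were called, against 5.69% of all, among them SNAI1 at 12, 24 and 36 h and SOX4 from 36 h on. At 72 h without the block, 2.58% of all genes were called in either direction and 0.831% were called higher. At 96 h these shares were 1.79% and 0.536%. At the times with no factor called in that fit, the share of all genes called was 0.0177% (6 h), 0.383% (12 h), 1.21% (24 h), 2.3% (36 h) and 7.6% (48 h). The moderated F test over the whole course called HMGA2 (adjusted p = 0.0428), against 1.72% of all genes, and gave an adjusted p of 0.0506 for SOX4. By this F test SOX4 passed with the block (0.00365, against 6.13% of all genes) and with TMM-type scaling (0.00719, against 3.34%). The calls rest on few libraries: without 0 h replicate 2 there were 0, without 72 h replicate 1 there was 1, without either 12 h library or 96 h replicate 1 there were 5, and without 96 h replicate 2 there were 7. The F test called 0 factors in 12 of the 16 fits that left out 1 library, all but those without a 12 h or a 96 h library.

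The libraries differed in makeup. A set of 6 abundant small RNAs took 42.5% of the TPM in 12 h replicate 1 and 64.1% in 48 h replicate 1, and TPM share a fixed total. Over all genes tested, the median log2 fold change as deposited was -0.37 (6 h), 0.03 (12 h), -0.15 (24 h), -0.16 (36 h), -0.46 (48 h), -0.16 (72 h) and -0.20 (96 h) relative to 0 h. With a TMM-type rescaling these medians lay between -0.07 and 0, and the factors are given under it where a call changes. Libraries with the same number also deviated together, so values with the replicate number as a block stand beside results of the factors that the block changes. With the block, 2.61%, 3.79%, 5.63%, 16.6%, 6.3% and 4.82% of all genes were called from 12 to 96 h in order. With TMM-type scaling 4.14%, 5.35%, 4% and 2.91% were called from 36 to 96 h in order. The part of these library features in the results was not tested. The 2 libraries of 0 h enter every comparison with 0 h, so those comparisons are not independent. The simple epithelial keratins KRT8 and KRT18 stood at 1789 ± 245 and 2389 ± 487 TPM at 0 h (SD, n = 2). They do not single out A549 among simple epithelia. In the same list of 7 identity genes, ALDH1A1, AKR1B10, KRT19, CDH1 and EPCAM averaged 4092, 1526, 50.14, 21.04 and 4.415 TPM at 0 h. Of the 7, 5 were called lower at some time (6 with the block, 3 with TMM-type scaling) and 0 higher. Of all genes, 6.97%, 15.4% and 3.66% were called lower in these fits. At 96 h KRT8 and AKR1B10 averaged 767.4 and 222.8 TPM. Markers of other cell types summed to 0.30 to 7.41 TPM for endothelium (6 of 7 markers in the table), 0 to 0.50 TPM for erythroid cells (5 markers), 5.95 to 26.9 TPM for fibroblasts (8) and 5.72 to 15.1 TPM for leukocytes (8). The endothelial sum was highest at 12 to 36 h and was made up mostly of ESAM, an adhesion gene that rose at 12, 24 and 36 h, while CDH5, VWF and KDR reached at most 0.18, 0.05 and 0.02 TPM. Of early SMAD target genes, 3 of 10 were called higher at some time (7 with the block and 5 with TMM-type scaling), against 1.33% of all genes (3.9% and 4.09%), and 0 were called lower. Of the other marker lists, 0 of 3 fibroblast genes that passed the filter were called, CD14 alone of 4 leukocyte genes was called lower, and 0 of 13 mitochondrial transcripts were called (10 lower at some time with the block). The share of all genes called lower at some time was 6.97%, and 15.4% with the block. The part of these marker levels in the results was not tested.

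SOX4, whose gene lies on chromosome 6 (21592768 to 21598619, + strand, GRCh38, a position found by the Ensembl identifier because the files name no build), is induced by TGF-beta in many epithelia and acts upstream of the chromatin modifier EZH2. From 0 to 96 h it measured 33.0, 31.8, 57.9, 50.9, 57.6, 50.8, 98.8 and 97.4 TPM in replicate 1. In replicate 2 it measured 20.9, 29.7, 33.4, 42.7, 47.3, 57.7, 69.0 and 79.3 TPM, so each time was higher than the one before. All 4 libraries of 72 and 96 h lay above the other 12. SOX4 averaged 83.9 ± 21.1 TPM at 72 h, against 27.0 ± 8.55 TPM at 0 h (SD, n = 2 each), a difference of 1.61 on the log2(TPM + 1) scale (adjusted p = 0.0133 by limma; SE 0.30). At 96 h it averaged 88.3 ± 12.8 TPM, with a log2 fold change of 1.70 against 0 h (adjusted p = 0.0129 by limma; SE 0.30). The values at 36 and 48 h (log2 fold changes of 0.96 and 1.01, adjusted p = 0.129 and 0.0573) passed with the replicate block (adjusted p = 0.0264 and 0.0144) and with TMM-type scaling (adjusted p = 0.0210 and 0.00422). Ordered by mean level, the times of SOX4 ran in the order of the clock, and neighbouring times overlapped except 12 h above 6 h and 72 h above 48 h. Without 0 h replicate 2 the call was lost at 72 and 96 h (adjusted p = 0.246 and 0.260), and likewise without 72 h replicate 1 (0.196) and without 96 h replicate 1 (0.0875). EZH2 itself was called lower at 48 h (6.86 ± 1.87 TPM against 20.7 ± 3.16 TPM at 0 h, log2 fold change -1.48, adjusted p = 0.0419 by limma; 0.0625 with TMM-type scaling).

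HMGA2, on chromosome 12 (65824131 to 65966295, + strand), measured 3.61, 2.02, 10.8, 11.5, 17.2, 12.6, 34.0 and 40.6 TPM from 0 to 96 h in replicate 1. The values in replicate 2 were 5.68, 3.19, 4.80, 7.22, 14.4, 19.4, 21.9 and 12.1 TPM. HMGA2 was thus lowest at 6 h in both replicates, did not clear the 0 h libraries at 12 h, and lay above both of them in every library from 24 h on. At 72 h it averaged 27.9 ± 8.57 TPM, against 4.65 ± 1.46 TPM at 0 h (SD, n = 2 each), a difference of 2.35 on the log2(TPM + 1) scale (adjusted p = 0.0283 by limma; SE 0.51). This call was lost without any one of the 4 libraries compared (adjusted p = 0.0568 to 0.302). The replicates parted at 96 h, where the log2 fold change of 2.07 missed the threshold (adjusted p = 0.0604; SE 0.51) and passed it with the block (0.0222) and with TMM-type scaling (0.00582). The values at 48 h also passed with the block (adjusted p = 0.0369), and those at 36 and 48 h with TMM-type scaling (0.0169 and 0.00643). Between the times ordered by mean, libraries were apart only for 0 h above 6 h and 36 h above 24 h.

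Of the Snail factors, SNAI1 followed another course. Its gene is on chromosome 20 (49982999 to 49988886, + strand). It measured 0.89, 2.24, 7.94, 5.91, 5.79, 1.97, 4.12 and 4.30 TPM from 0 to 96 h in replicate 1 and 0.31, 1.19, 3.22, 3.49, 3.18, 1.33, 1.23 and 0.71 TPM in replicate 2. Both replicates had their highest values between 12 and 36 h, and both were lower again at 48 h, though above their own 0 h values. With TMM-type scaling the 48 h values were 2.69 and 1.49 TPM in replicates 1 and 2, against 0.79 and 0.26 TPM at 0 h. The means were 5.58 ± 3.34 TPM at 12 h, 4.70 ± 1.71 TPM at 24 h and 4.49 ± 1.85 TPM at 36 h, against 0.60 ± 0.41 TPM at 0 h (SD, n = 2 each), with log2 fold changes of 1.97, 1.82 and 1.76 (SE 0.56 each). These were not called (adjusted p = 0.195, 0.174 and 0.141 by limma) and passed with the replicate block (0.00628, 0.00583 and 0.00498). With TMM-type scaling and the block together SNAI1 was also called higher at 48, 72 and 96 h (adjusted p = 0.0150, 0.00768 and 0.0248 by limma). In that fit 5.47%, 5.03% and 3.9% of all genes were called higher at these times. Low values make the log2(TPM + 1) scale understate such differences. The block also called SNAI1 over the whole course (adjusted p = 0.0128, against 0.357 without it), with 6.13% of all genes called.

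SNAI2, which lies on chromosome 8 (48917604 to 48921740, - strand) and drives a similar programme in neural crest and breast epithelium, had its highest value at 72 h in replicate 1 and at 36 h in replicate 2. Replicate 1 measured 1, 1.70, 3.57, 2.77, 3.12, 3.91, 6.80 and 6.14 TPM, and replicate 2 measured 0.05, 0.39, 0.79, 1.30, 2.01, 0.63, 1.42 and 1.07 TPM. Replicate 1 was above replicate 2 at 8 of 8 times, by a median of 4.65 times, the widest gap among the factors. SNAI2 averaged 4.11 ± 3.80 TPM at 72 h, against 0.53 ± 0.67 TPM at 0 h (SD, n = 2 each), a difference of 1.58 on the log2(TPM + 1) scale (adjusted p = 0.326 by limma; SE 0.75). The block called it at 36, 72 and 96 h (adjusted p = 0.0412, 0.0132 and 0.0302). With TMM-type scaling alone it was not called (adjusted p = 0.258 at 72 h).

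The ZEB factors were not called at any time, with or without the block, except ZEB2 at 72 h with TMM-type scaling and the block together (adjusted p = 0.0431). ZEB1, on chromosome 10 (31318495 to 31529814, + strand), measured 13.7, 11.1, 33.6, 24.2, 25.5, 15.2, 27.9 and 38.0 TPM in replicate 1 and 13.1, 12.6, 18.3, 18.7, 18.9, 15.4, 15.2 and 7.11 TPM in replicate 2. Every library of 12, 24, 36, 48 and 72 h lay above both of 0 h, but at 96 h 1 library held the highest and the other the lowest of all 16 values. The log2 fold change was 0.84 at 12 h (adjusted p = 0.893 by limma; SE 0.55) and 0.30 at 96 h. Without 96 h replicate 1 the 96 h value was -0.83, and without 96 h replicate 2 it was 1.44. ZEB2, on chromosome 2 (144364364 to 144524583, - strand), measured 1.60, 0.90, 3.45, 2.81, 2.82, 1.45, 3.54 and 2.54 TPM in replicate 1 and 0.68, 0.58, 1.39, 1.45, 1.28, 0.86, 1.24 and 1.44 TPM in replicate 2. Its libraries overlapped those of 0 h at all 7 times, and replicate 1 was the higher at each of the 8. Within each replicate ZEB2 lay above its own 0 h library at 12, 24, 36, 72 and 96 h, by 0.415 to 0.804 on the log2(TPM + 1) scale. At 6 h it lay below in both replicates, and at 48 h the replicates differed in sign.

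SOX9, a regulator of progenitor cells in the developing lung and of cartilage, lies on chromosome 17 (72121020 to 72126420, + strand). It measured 5.14, 2.15, 14.1, 8.31, 10.9, 3.52, 10.3 and 14.2 TPM in replicate 1, and 2.86, 1.15, 2.99, 4.11, 4, 3.28, 5.04 and 3.15 TPM in replicate 2. Both replicates were lowest at 6 h, where the log2 fold change against 0 h was -0.90 (adjusted p = 0.489 by limma; SE 0.70). It was not called against 0 h except at 72 h with TMM-type scaling and the block together (adjusted p = 0.0320), and its value at 48 h was -0.15 as deposited and 0.25 with TMM-type scaling. TWIST1, on chromosome 7 (19020991 to 19117672, - strand), was the only one of the 8 with its highest mean at 0 h. It measured 1.86, 0.51, 0.92, 0.99, 1.11, 0.58, 1.24 and 1.10 TPM in replicate 1 and 1.60, 1.22, 1.16, 0.80, 0.85, 1.34, 1.10 and 1.70 TPM in replicate 2. All libraries of 6 to 72 h lay below both of 0 h, with log2 fold changes between -0.58 and -0.33 and no call (adjusted p = 0.376 at 6 h by limma).

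**Figure D2:**
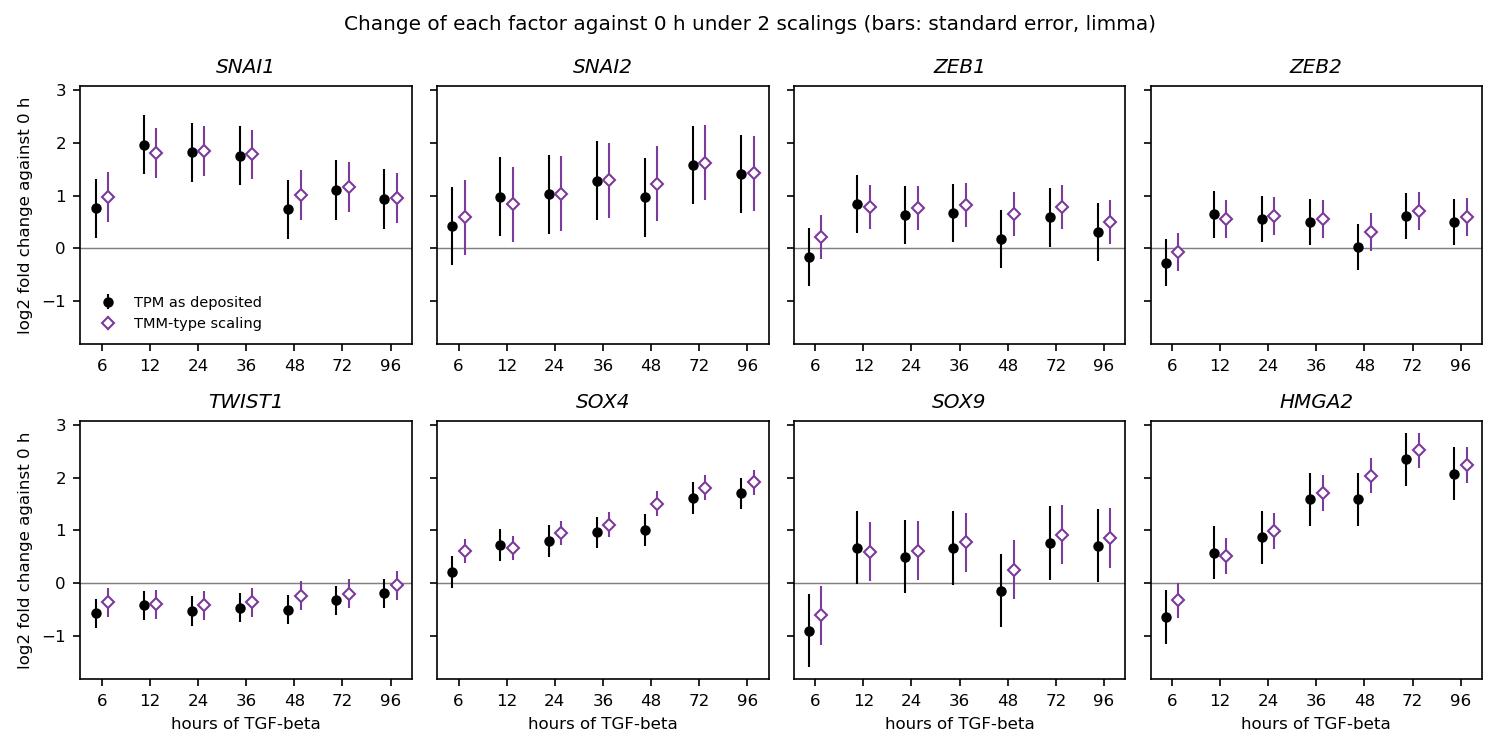
Log2 fold change of each factor against 0 h on the log2(TPM + 1) scale (vertical axis) at 6 to 96 h (horizontal axis); filled circles are TPM as deposited, open diamonds TMM-type scaling, and bars are 1 standard error from limma. The values of SOX4 and HMGA2 climb to 1.70 at 96 h and 2.35 at 72 h as deposited, those of SNAI1 are largest from 12 to 36 h, and those of TWIST1 lie below 0 under both scalings.

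Set against all genes, the factors as a group were mostly above 0. Of the 8, 7 had a positive log2 fold change at 12, 24, 36, 72 and 96 h, 6 at 48 h and 3 at 6 h. The number of factors above the median of all genes was 5 at 6 h, 7 at each time from 12 to 72 h and 8 at 96 h. In order of time from 6 to 96 h, their median was -0.22, 0.70, 0.71, 0.82, 0.46, 0.93 and 0.82, beside the medians of all genes given above. With TMM-type scaling the medians of the factors were 0.07, 0.63, 0.86, 0.96, 0.83, 1.04 and 0.91 at these times, and the number above 0 was 4 at 6 h and 7 at each later time. With TMM-type scaling 8 of the 56 comparisons were called, all of SOX4 and HMGA2, against 2.94% of all. With the block as well 21 were called, against 8.01%, of which ZEB2 and SOX9 at 72 h came in besides further times of SNAI1, SNAI2 and SOX4.

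The comparison of the middle with the early phase (24 and 36 h against 6 and 12 h) called 0 factors, with 0.177% of all genes called. At an unadjusted p below 0.05, 1 factor was higher, beside 623 higher and 651 lower of all 16967 genes. HMGA2 averaged 12.6 ± 4.26 TPM at 24 and 36 h, against 5.20 ± 3.89 TPM at 6 and 12 h (SD, n = 4 each), a log2 difference of 1.26 (SE 0.36, adjusted p = 0.252; 0.0384 with TMM-type scaling, under which 0.836% of all genes were called). With TMM-type scaling and the block together HMGA2 and SOX9 were called higher in this comparison (1.26 and 0.70, adjusted p = 0.0116 and 0.0444), against 3.73% of all genes. The comparison of the late with the middle phase (72 and 96 h against 24 and 36 h) also called 0 factors, with 0.1% of all genes called. At an unadjusted p below 0.05, 2 factors were higher, beside 340 higher and 785 lower of all 16967 genes. SOX4 averaged 86.1 ± 14.5 TPM in the late phase, against 49.6 ± 6.31 TPM in the middle phase, a log2 difference of 0.78 (adjusted p = 0.338; SE 0.21) with no overlap between libraries. SNAI1 averaged 2.59 ± 1.88 TPM late, against 4.59 ± 1.46 TPM in the middle phase (log2 difference -0.77, SE 0.40, adjusted p = 0.842). With TMM-type scaling and the block together, SOX4 and HMGA2 were higher in the late phase (0.83 and 1.03, adjusted p = 0.0165 and 0.0458) and SNAI1 was lower (-0.75, adjusted p = 0.0419), with 1.73% of all genes called.

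Ratios within a library do not depend on how the library was scaled. HMGA2 over SNAI1 was 8.25 to 17.8 in the 4 libraries of 72 and 96 h and 6.41 and 14.6 at 48 h, against 1.94 to 4.52 in the 4 libraries of 24 and 36 h. At 6 and 12 h it was 0.902 to 2.68, and at 0 h it was 4.06 and 18.3. SOX4 over SNAI1 was 22.6 to 112 at 72 and 96 h and 25.8 and 43.4 at 48 h, against 8.61 to 14.9 at 24 and 36 h, 7.29 to 25.0 at 6 and 12 h, and 37.1 and 67.5 at 0 h. For both pairs the libraries of 48 h and later lay entirely above those of 24 and 36 h. ZEB1 over SNAI1 was 6.77 to 12.4 at 72 and 96 h, against 4.10 to 5.95 at 24 and 36 h. The 0 h ratios rest on SNAI1 levels of 0.89 and 0.31 TPM and are imprecise. These ratios were looked at after the levels were known and were given no test.

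**Figure D3:**
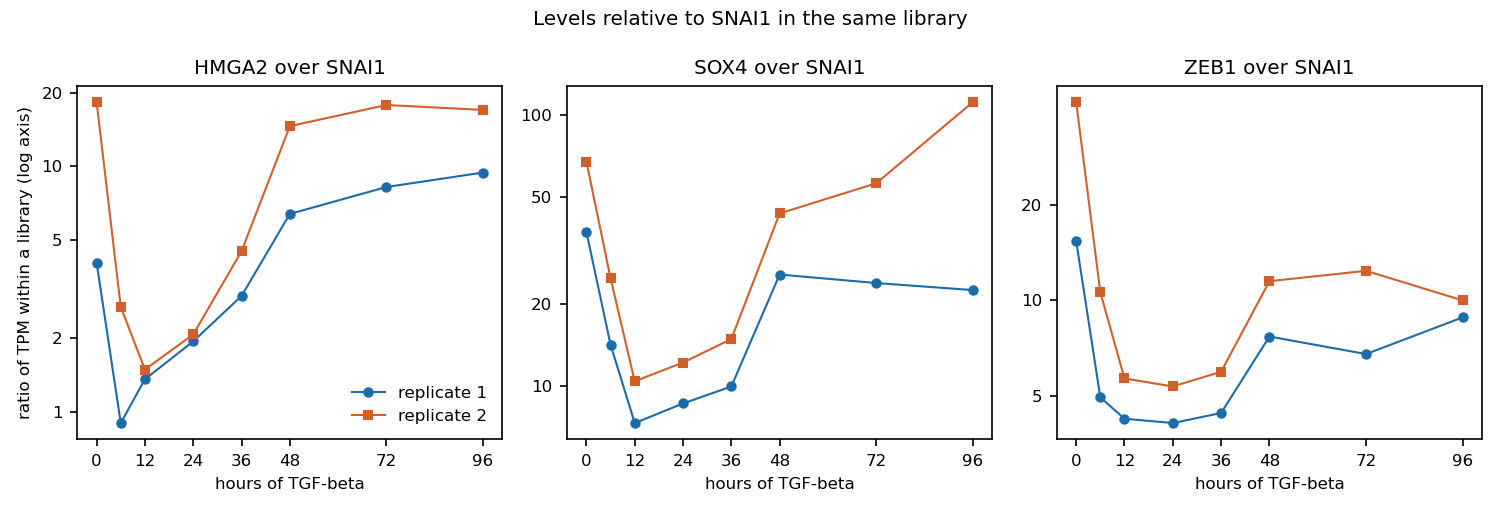
Ratio of HMGA2, SOX4 and ZEB1 TPM to SNAI1 TPM in the same library (log axis) against hours of TGF-beta; circles are replicate 1 and squares replicate 2. In each panel both replicates dip after 0 h, are low at 12 and 24 h and are higher again from 48 h on.

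Non-coding transcripts beside or opposite the factors were followed as well. HMGA2-AS1 is annotated inside HMGA2 on the other strand (chromosome 12, 65851340 to 65882167, - strand). From 0 to 96 h it measured 0.70, 0.15, 3.13, 3.28, 3.79, 1.33, 6.85 and 11.5 TPM in replicate 1 and 1.54, 0.55, 0.84, 2.37, 6.54, 3.99, 5.97 and 1.05 TPM in replicate 2. Its lowest values were at 6 h and its 1.05 TPM in 96 h replicate 2 sat beside the lower HMGA2 value there. Whether reads were counted by strand is not given in the sources used here, so reads of HMGA2 and HMGA2-AS1 cannot be told apart where they overlap. CASC15, a long intergenic RNA that starts downstream of SOX4 on the same strand (chromosome 6, 21664772 to 22368328), does not overlap it. It measured 3.38, 3.77, 6.87, 5.68, 7.84, 7.81, 13.2 and 13.6 TPM in replicate 1 and 2.88, 3.19, 4.34, 5.37, 6.64, 6.00, 7.78 and 4.79 TPM in replicate 2. At 72 h it averaged 10.5 ± 3.81 TPM, against 3.13 ± 0.35 TPM at 0 h, a difference of 1.44 on the log2(TPM + 1) scale (SE 0.39; adjusted p = 0.0794 by limma, 0.0124 with the block and 0.0121 with TMM-type scaling). ZEB1-AS1, which overlaps the start of ZEB1 on the other strand (chromosome 10, 31206278 to 31320447), lay between 1.31 and 3.77 TPM. The Pearson correlation with the paired factor over the 16 libraries, on log2(TPM + 1), was 0.91 for HMGA2-AS1, 0.88 for CASC15 and 0.42 for ZEB1-AS1, as a description of libraries that share times and replicate numbers. Of the 4 such transcripts that passed the filter, 0 were called in the 7 comparisons with 0 h by limma. At an unadjusted p below 0.05, 10 of their comparisons differed, 9 of them higher. Over all 16967 genes, from 172 (6 h) to 861 (12 h) were higher at that threshold and from 546 (12 h) to 4526 (48 h) were lower.

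**Figure D4:**
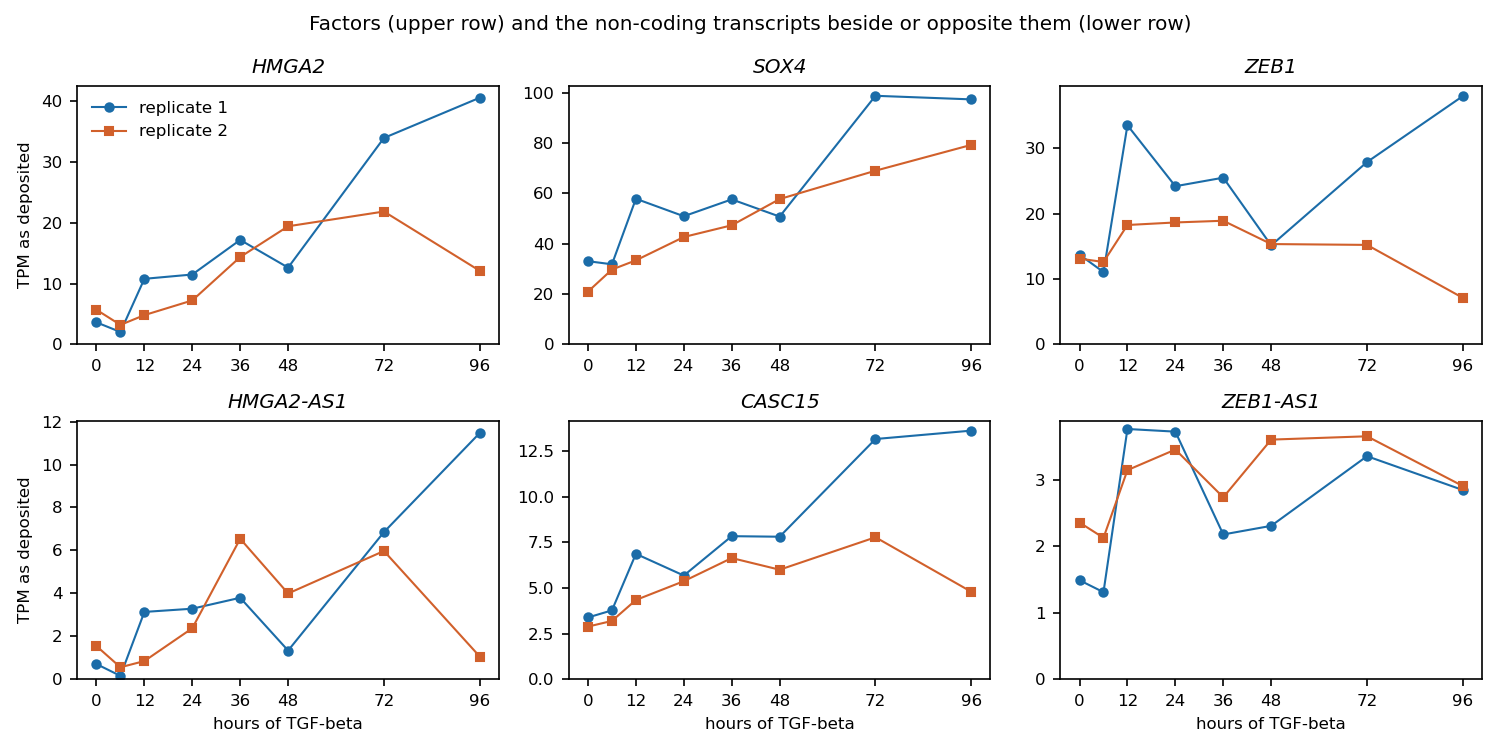
TPM as deposited (vertical axes, starting at 0) against hours of TGF-beta for HMGA2, SOX4 and ZEB1 (upper row) and for HMGA2-AS1, CASC15 and ZEB1-AS1 (lower row); circles are replicate 1 and squares replicate 2. HMGA2-AS1 reaches 11.5 TPM in 96 h replicate 1 and 1.05 TPM in 96 h replicate 2, and CASC15 is at 13.6 and 4.79 TPM in these libraries.

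Among the factors, patterns over the 16 libraries were most alike for ZEB2 and SOX9 (Pearson r = 0.925), SOX4 and HMGA2 (0.877), ZEB1 and SOX9 (0.843), SNAI1 and ZEB1 (0.831) and SNAI2 and ZEB2 (0.831). With TMM-type scaling these were 0.876, 0.837, 0.734, 0.824 and 0.838. SNAI1 and HMGA2 had r = 0.345, and TWIST1 with the others lay between -0.492 and 0.048. With TMM-type scaling TWIST1 had r = -0.742 with SNAI1 and -0.647 with ZEB1, against -0.492 and -0.228 as deposited. The libraries share times and replicate numbers, and replicate 1 exceeded replicate 2 at 8 of 8 times for SNAI1, SNAI2, ZEB2 and SOX9, at 7 for SOX4, at 6 for ZEB1, at 5 for HMGA2 and at 4 for TWIST1. The genes most like each factor, among 9384 genes averaging 5 TPM or more, were COL1A1 (r = 0.977), VGLL3 and ACSL4 for SNAI1, and JAG1 (0.945), KCNG1 and SOWAHC for SNAI2. For ZEB1 they were ZDHHC17 (0.965), BIRC2 and STX2, and for ZEB2 TGFB1 (0.957), KCNMA1 and PPP3CA. For SOX4 they were FN1 (0.959), which encodes fibronectin, THBD and STC1. For SOX9 they were PLEKHG2 (0.984), PTPN14 and ANTXR1, for HMGA2 SYT1 (0.964), SGCD and PITPNC1, and for TWIST1 MRPL10 (0.905), CREB3L4 and ISCU. With TMM-type scaling none of the 3 genes named for ZEB1 or SOX4 stayed among the closest 3.

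Other factors that promote EMT gave no call without the block. Of 16 on the list, 10 passed the filter, and 0 of their 70 comparisons with 0 h were called by limma, against 2.27% over all genes. At an unadjusted p below 0.05, 1 was higher and 11 were lower, with the most lower at 48 h (3 of the 10). Low values were common over all genes too, with 2135 of 16967 lower at that threshold at 6 h and 4526 at 48 h. TCF4, which encodes the E-protein E2-2, passed at 96 h with the block alone (14.9 ± 9.96 TPM against 5.09 ± 1.12 TPM at 0 h, log2 fold change 1.24, adjusted p = 0.0471). HMGA1, the close relative of HMGA2, was more abundant than it at a median of 54.4 TPM over the libraries. HMGA1 was lower at 48 h with the block (log2 fold change -1.27, adjusted p = 0.0260), when 14.9% of all genes were called lower. With TMM-type scaling 0 of the 10 were called at any time. FOXC2, GSC, PRRX1, KLF8, LEF1 and TBXT did not pass the filter. Of 17 other SOX genes, 5 passed, with 0 called against 0 h by limma. At an unadjusted p below 0.05, 8 comparisons were lower, 2 of them at 48 h and 1 at each other time. SOX2 was lower at 24 and 48 h with the block (adjusted p = 0.0458 and 0.0223), when 1.92% and 14.9% of all genes were called lower. With TMM-type scaling 0 of the 5 SOX genes were called. Of 7 let-7 regulated genes besides HMGA2, 5 passed and 0 were called. At an unadjusted p below 0.05, 0 comparisons were higher and 2 lower, at 36 and 48 h, where 1651 and 4526 of all 16967 genes were lower.

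Factors that maintain the epithelial state were lower than at 0 h wherever they were called. Of 17, 9 passed the filter. From 12 to 96 h in order, 1, 2, 3, 5, 2 and 1 of them were called lower, and 0 were called higher. All genes were called lower at 0.13%, 0.595%, 1.33%, 6.8%, 1.74% and 1.26% at these times. At 48 h the split of all called genes was 135 higher and 1154 lower as deposited, and 406 higher and 477 lower with TMM-type scaling, under which 4 of the list were lower. SPDEF, a factor of secretory cells, fell to 0.15 ± 0.08 TPM at 24 h, against 4.60 ± 2.43 TPM at 0 h (log2 fold change -2.21, adjusted p = 0.00666 by limma), and was called at every time from 12 h on. EHF, an epithelial ETS factor, fell to 0.56 ± 0.08 TPM at 24 h, against 7.39 ± 3.54 TPM at 0 h (log2 fold change -2.36, adjusted p = 0.0378; 0.0584 with TMM-type scaling). FOXA2, a forkhead factor of lung epithelium, was called at 36 and 48 h. At 24 h (log2 fold change -1.69) its adjusted p was 0.0539 by limma, 0.0135 with the block and 0.0183 with TMM-type scaling. The epithelial factor ELF3 was called at 48 h (adjusted p = 0.0424 by limma, 0.127 with TMM-type scaling). At 24, 72 and 96 h ELF3 was called with the block (0.0292, 0.00473 and 0.00461) but not without it (0.212, 0.0618 and 0.0642) or with TMM-type scaling (0.252, 0.0923 and 0.106). The list was not uniform. TP63 was higher at 72 h without a call (8.31 ± 1.36 TPM against 3.23 ± 2.27 TPM at 0 h, log2 fold change 1.25, adjusted p = 0.222 by limma). KLF4, FOXA1 and CEBPA had log2 fold changes of -0.16, -0.19 and -0.06 there. At an unadjusted p below 0.05, 1 of the 9 was higher and 5 were lower at 72 h, beside 651 and 2045 of all 16967 genes. The median of the list was -0.78 at 24 h and -1.15 at 48 h, beside -0.15 and -0.46 for all genes. Among those that did not pass the filter were GRHL1, GRHL2, GRHL3, OVOL1 and OVOL2.

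Of 22 epithelial genes known to be repressed by SNAI and ZEB factors, 17 passed the filter. At 24 h 3 were lower and 1 higher, at 48 h and 72 h 7 were lower and 1 higher, and at 96 h 6 were lower and 0 higher. The shares of all genes called lower at these times stand with the preceding list, and those called higher were 0.613% at 24 h, 0.796% at 48 h, and as given above at 72 and 96 h. CDH1 fell to 1.90 ± 1.16 TPM at 24 h, against 21.04 ± 9.23 TPM at 0 h, and to 1.51 ± 1.06 TPM at 72 h (log2 fold change -3.13 with adjusted p = 0.0194 by limma; SE 0.62). At 24 h its adjusted p was 0.0427 as deposited and 0.0558 with TMM-type scaling. Of the other 6 called lower at 72 h, KRT19, a simple epithelial keratin, had 4.53 ± 0.33 TPM against 50.1 ± 0.30 TPM at 0 h (log2 fold change -3.21, adjusted p = 0.0076). The polarity gene LLGL2 and the keratin KRT18 had log2 fold changes of -2.02 and -1.57 there (adjusted p = 0.0104 and 0.00798; 0.0401 and 0.0725 with TMM-type scaling). CLDN4, a claudin, went against the list and was higher from 12 to 72 h, with 20.3 ± 7.67 TPM at 24 h against 1.59 ± 0.19 TPM at 0 h (log2 fold change 2.99, adjusted p = 0.0096). With TMM-type scaling the counts of lower genes at 24, 48, 72 and 96 h were 1, 4, 5 and 2, against 0.89%, 2.89%, 1.77% and 1.38% of all genes. At some time 7 of the 17 were called lower as deposited and 10 with the block, against 6.97% and 15.4% of all genes.

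Of 12 mesenchymal output genes, 11 passed, and 1, 2, 3 and 2 were called higher at 24, 48, 72 and 96 h, with 0 lower, against 0.613%, 0.796%, 0.831% and 0.536% of all genes called higher. TAGLN, an actin-binding protein, was higher at 24 h. FN1 was called from 48 h and reached 1279 ± 780 TPM at 96 h, against 109 ± 36.6 TPM at 0 h (log2 fold change 3.43, adjusted p = 0.0108). MMP2, a gelatinase, was called at 72 and 96 h. With TMM-type scaling the counts higher were 2, 4, 5 and 4, against 1.99%, 2.46%, 2.23% and 1.53% of all genes. With the block they were 8, 7, 9 and 6, against 1.87%, 1.7%, 2.08% and 1.5%, VIM and CDH2 among them at 24 h (0.93 and 1.43, adjusted p = 0.0274 and 0.00585). S100A4, often used as a mesenchymal marker, went against the direction of the list. It was lower at 72 and 96 h with the block (log2 fold changes -1.48 and -1.68, adjusted p = 0.00599 and 0.00313 by limma). Without the block it was not called at these times (0.132 and 0.112), nor with TMM-type scaling (0.321 and 0.293).

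**Figure D5:**
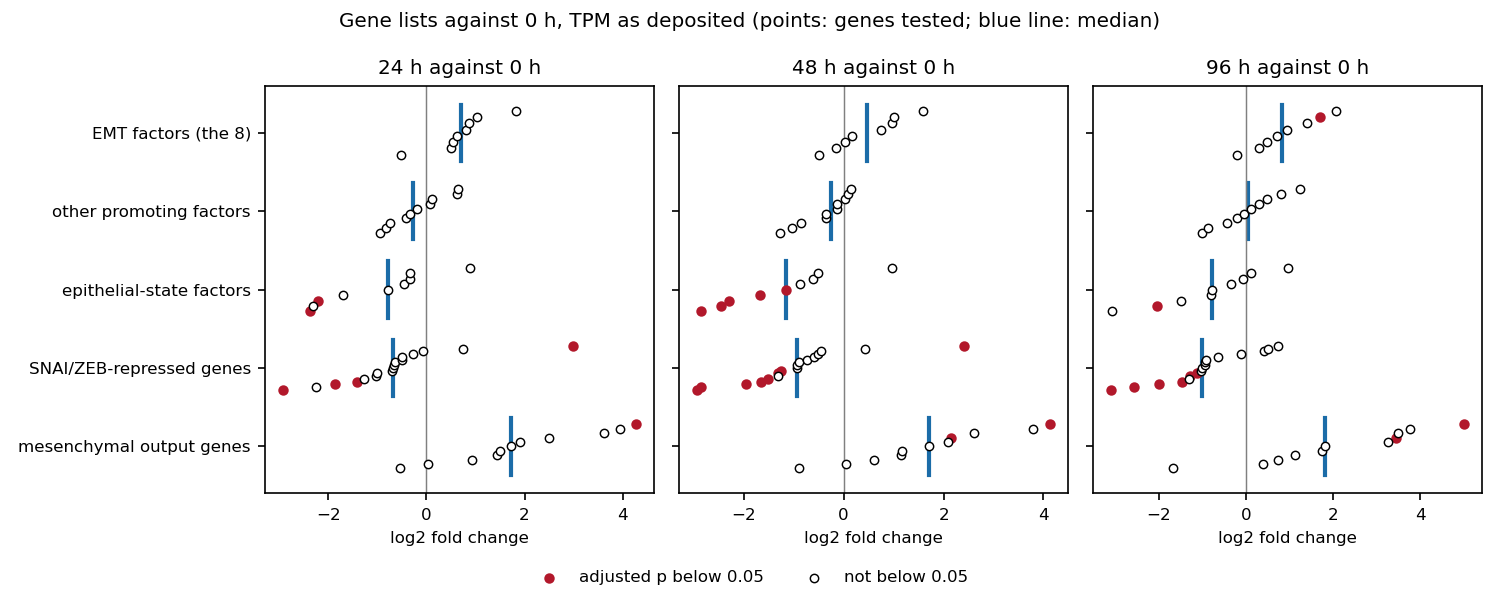
Log2 fold change (horizontal axis) of the genes tested in 5 lists at 24, 48 and 96 h against 0 h, TPM as deposited; red points have a limma adjusted p below 0.05, open points do not, and the blue line is the list median. The 8 factors lie mostly right of 0 with a median of 0.71 at 24 h, and other promoting factors lie on both sides of 0. At 24 and 48 h CLDN4 is the red point to the right among the genes repressed by SNAI and ZEB factors. At 96 h it is an open point at 0.75.

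The partners of the factors that were called in the fit without the block were lower at 48 h, where all called genes split into 135 higher and 1154 lower. Of 16 corepressors and chromatin partners, 15 passed the filter, and EZH2 and LIMD1, a LIM protein that binds SNAI1, were called lower at 48 h, 2 of 15 against 6.8% of all genes (LIMD1 at 4.11 ± 0.13 TPM against 18.0 ± 5.49 TPM at 0 h, log2 fold change -1.87, adjusted p = 0.0193). With the block 5 were lower at 48 h, against 14.9% of all genes. LIMD1 was also lower at 24, 36 and 72 h with the block (adjusted p = 0.0434, 0.0211 and 0.0380), and from 24 to 96 h with TMM-type scaling (0.0183, 0.00888, 0.0095, 0.0215 and 0.0440). Of 11 regulators of factor protein stability, such as GSK3B and the F-box genes FBXW7 and FBXL14, 11 passed the filter. By limma 0 of them were called at any time, with or without the block or TMM-type scaling. At an unadjusted p below 0.05, 3 comparisons were lower, 1 at 6 h and 2 at 48 h, where 2135 and 4526 of all 16967 genes were lower. The list's median at 96 h was -0.16, beside -0.20 for all genes. In a bulk sample, fewer cells of a kind and less RNA per cell cannot be told apart, which holds for every level given here.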

How the data were processed

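RNA of A549 cells was sequenced at 8 times with 2 libraries each. The authors deposited TPM for 57773 genes in 1 table per replicate number; Bowtie and RSEM are named per the submitters' processing notes, and their versions, the genome build, the annotation and any use of strand were not found in the labels or headers. TPM keep no depth, so depth per library is unknown and no counting error can be given. All value columns were mapped to samples (0 unmapped), and 0 pairs of libraries were identical.

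The 16967 genes that reached 1 TPM in 2 or more libraries entered limma 3.58.1 (R 4.3.3) on log2(TPM + 1), with 1 mean per time over all 16 libraries, moderated variances with a trend, two-sided tests and Benjamini-Hochberg adjustment over all genes; calls had an adjusted p below 0.05. This scale understates fold changes of low genes. Each time was compared with 0 h, 24 and 36 h with 6 and 12 h, 72 and 96 h with 24 and 36 h, and all times by a moderated F test. With 2 libraries a side, the smallest p of an exact permutation test is 0.333, so limma was used. The fit was run on simulated data with independent noise in each library, a capped spread per gene and no replicate effect. That run therefore does not cover libraries that deviate together, as these do. TMM-type scaling trimmed 30% of log ratios and 5% of mean levels (16510 genes tested). Alternatives were other pseudocounts and filters, this scaling, TPM rescaled without 6 small RNAs, the replicate block, and fits without single libraries. Figures were drawn with matplotlib 3.10.9 in Python 3.11.15.

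Whether the replicates were separate cultures is not in the labels, so p-values measure the spread between these libraries, which may be technical. Same-numbered libraries deviated together: over 28 pairs of times the correlation of their deviations from the time means was 0.128 to 0.605, with a median of 0.438. On this check of the data alone the numbers pair the libraries. The calls reported first come from the fit without a replicate term, and values with the number as a block are given where they change a call of a factor. For the gene lists they are given for some genes and counts only.

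All 8 factors are named. From each gene list at most 4 called genes in each direction are named, by size of change, plus CDH1, VIM and CDH2; TCF4, HMGA1, SOX2, S100A4, ESAM and the ratios to SNAI1 were picked after their values were seen. The factors and lists were chosen with earlier results of these data known. Gene positions and untranslated regions came from GENCODE 29 by Ensembl identifier.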

Additional observations from a re-analysis of the deposited data

How the results depend on the processing

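The number of comparisons of a factor with 0 h that were called, 3 in the report, was 8 with TMM-type scaling, 8 without the 6 small RNAs, 13 with the replicate block, 21 with the block and TMM-type scaling together, and 19 with the block and no small RNAs (chosen after seeing the data). Leaving out 1 library at a time gave 0 to 7. For the F test over the course, 1 in the report, these settings gave 2, 2, 3, 4 and 5 factors, no filter gave 0, leaving out 36 h replicate 2 and 48 h replicate 2 together gave 0, and single libraries left out gave 0 to 2. For the middle against the early phase, 0 in the report, TMM-type scaling called 1 and the block with it 2, and for the late against the middle phase the block with it called 3. Leaving out single libraries gave 0 in both. The cause of these shifts was not tested.

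Signs turned for differences that were not called. ZEB1 at 6 h was 0.211 with TMM-type scaling, with or without the block, and 0.029 without small RNAs. SOX9 at 48 h was 0.253, 0.253 and 0.151. TWIST1 in the middle against the early phase was -0.011 with TMM-type scaling, with or without the block. Without 36 h replicate 2 and 48 h replicate 2, the late against the middle phase gave -0.158 for ZEB2 and -0.164 for SOX9. With single libraries left out, ranges that crossed 0 against 0 h were -0.06 to 0.898 for SNAI2, -0.586 to 0.045 for ZEB2 and -0.101 to 0.533 for SOX4 at 6 h, -0.287 to 1.634 for SOX9 at 12 h, -0.284 to 0.346 for ZEB2 and -0.481 to 0.188 for SOX9 at 48 h, and -0.83 to 1.436 for ZEB1 and -0.23 to 1.644 for SOX9 at 96 h. They were -0.137 to 0.141 for TWIST1 in the middle against the early phase, and for the late against the middle phase -0.103 to 0.79 for SNAI2, -0.771 to 0.362 for ZEB1, -0.227 to 0.283 for ZEB2 and -0.319 to 0.619 for SOX9. Of the log2 differences recomputed, 981 kept direction and side of the threshold, 45 crossed into and 10 out of a call, and 36 changed sign.

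Of the called values, SOX4 kept 1.297 to 1.93 at 72 h and 1.385 to 2.018 at 96 h with a library left out, and lost its call in 2 of 4 such fits at each time. HMGA2 at 72 h kept 2.043 to 2.657 and lost its call in all 4 (adjusted p = 0.0568 to 0.302 by limma). Over all genes, the called number at 48 h was 1289 as deposited, 883 with TMM-type scaling, 2822 with the block and 24 to 1175 with a library left out; at 96 h it was 304, 481, 817 and 6 to 437.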
